A study of Mus musculus with 40 samples.

Results

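Loss of Ikaros was studied in follicular B cells that had met their antigen in the mouse for 1 day. The comparison rests on 10 of the 28 RNA-seq libraries and of the 40 samples in the series. All mice were C57BL/6 and carried the MD4 transgene, whose B cell receptor binds hen egg lysozyme (HEL), and all had received HEL by intravenous injection 1 day before the cells were isolated and sorted by flow cytometry without culture. The 5 libraries with Ikaros loss were from Cd23-cre Ikzf1(fl/fl) mice, in which both Ikzf1 alleles are flanked by recombination sites and the Cre recombinase is driven by the promoter of Cd23, a gene that B cells switch on late in their development. The 5 control libraries were from Ikzf1(fl/fl) mice without Cre, so an effect of Cre itself and the loss of Ikaros cannot be told apart. The sources used here do not give the ages of the mice. By transcripts of Y-linked genes each group held 3 libraries from female and 2 from male mice. Whether each library is its own animal is not in the labels, so the p-values rest on the spread among these libraries, part of which may be technical.

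Ikaros is a zinc finger protein that binds DNA at sequences with the core GGGAA and recruits chromatin remodelling complexes, among them NuRD. It is required for the development of lymphocytes, and in mature B cells it is known to set how strongly the antigen receptor (BCR) and Toll-like receptors respond. Aiolos, encoded by Ikzf3, is its closest relative in B cells. A follicular B cell that binds a soluble antigen signals through the BCR into calcium, Ras and NF-kB pathways, moves within the lymphoid tissue, takes up the antigen and presents it on MHC class II. Without help from T cells it becomes refractory, a state called anergy.

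The targeted gene was lower in every library with Cre. Ikzf1 was at 214, 195, 261, 200.3 and 205 TPM (transcripts counted against a constant total) in the 5 control libraries and at 68.7, 63.9, 66.4, 60.3 and 79.3 TPM in the 5 libraries with Ikaros loss. The groups did not overlap, and the highest control value was that of replicate 3. The log2 difference was -1.65 ± 0.087 (standard error of the fit, adjusted p = 1.86e-08). The value is summed over the gene, so transcripts that lack only the deleted exons still count. Ikzf3 was at 243, 248, 258, 214 and 244 TPM in controls and at 240.4, 224, 252, 293 and 308 TPM with Ikaros loss, and it did not pass the test (0.12 ± 0.086, adjusted p = 0.306). Its result depended on the setting. It was called higher with voom, a fit to reads recovered from the TPM values (0.197 ± 0.072, adjusted p = 0.0472). With median-ratio scaling, explained below, it was not (0.19 ± 0.071, adjusted p = 0.0557). Without replicate 5 with Ikaros loss it was 0.059 ± 0.079 (adjusted p = 0.591). Of the other family members, Ikzf5 did not pass either (-0.21 ± 0.086) but was called without replicate 5 with Ikaros loss or control replicate 4, and Ikzf2 and Ikzf4 stayed under 1 TPM in too many libraries to be tested.

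Across the transcriptome, 3790 of the 10258 genes tested were called at an adjusted p under 0.05, which is 36.9%. Of these, 1321 were higher with Ikaros loss (12.9% of genes tested) and 2469 lower (24.1%). TPM values of a library sum to a constant, so a change in a few abundant genes moves all others. With median-ratio scaling, which sets the scale by the typical gene, 3475 of 10250 genes were called (33.9%), 1771 higher (17.3%) and 1704 lower (16.6%), and the share of calls that were higher moved from 34.9% to 51.0%. The median of all genes tested was -0.08 on the TPM scale and -0.01 with median-ratio scaling. In 951 genes (9.27%) all 5 libraries with Ikaros loss were above all 5 controls, and in 1693 (16.5%) below them. All but 1 of the genes called higher, 1320, were also called higher with that scaling, and so were 1704 of the 2469 called lower. Counts of members called in each direction are therefore given on both scalings where they differ in balance. Each count is to be read against these shares over all genes tested.

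The large changes were mostly increases. Of 335 genes that were called and differed by at least 1 on the log2(TPM + 1) scale, a 2-fold change, 229 were higher and 106 lower, and 333 were called in the same direction with median-ratio scaling. Many of the raised genes were near silent in control cells. Of the 229, 65 had a mean under 1 TPM in controls, 115 a mean of 1 to 10 TPM, 43 of 10 to 100 TPM and 6 above 100 TPM. Of the 106 lowered genes, 17 had a mean under 1 TPM with Ikaros loss, 49 of 1 to 10 TPM, 36 of 10 to 100 TPM and 4 above 100 TPM. On the first principal component of the 10258 genes, which carried 59.6% of the variance, the control libraries lay between 19.22 and 24.64 and those with Ikaros loss between -24.06 and -16.9.

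**Figure D1:**
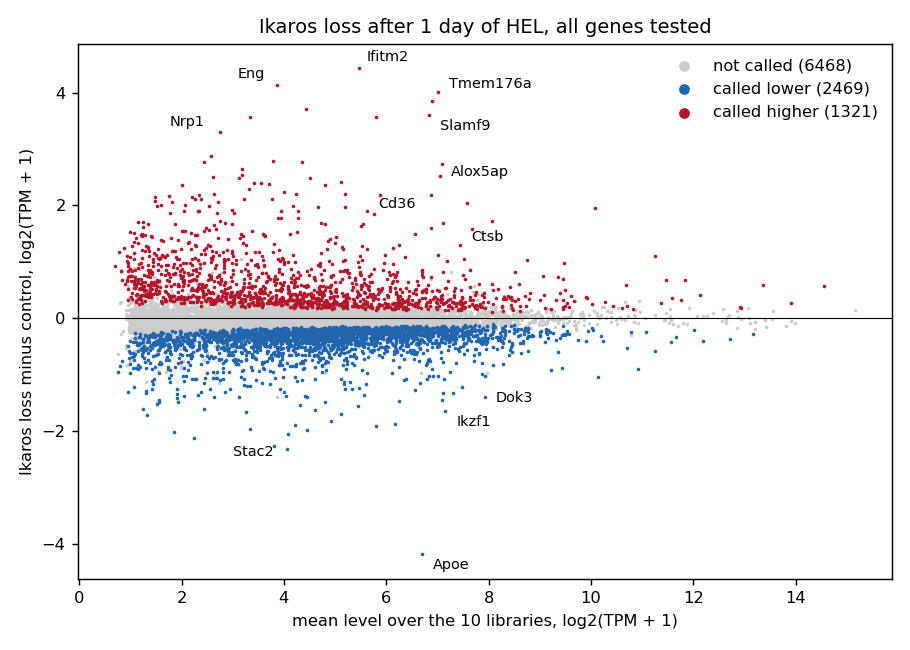
Each point is 1 of 10258 genes, placed by its mean level over the 10 libraries (x axis, log2(TPM + 1)) and by the difference between the means of 5 libraries with Ikaros loss and 5 control libraries (y axis, log2(TPM + 1)). Red points were called higher and blue points lower, and Ifitm2 and Apoe are the outermost of the named genes.

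The depth of the 10 libraries was 16085832 to 25424364 reads, recovered from the steps of the TPM values, and 13911 to 14464 genes were above 0 in each. Markers of follicular B cells were high in all 10, with a summed level of their 10 genes of 14781 to 15801 TPM in controls and 12320.0 to 13814 TPM with Ikaros loss. Of the 10, 5 were called lower and 1 higher, and the higher one was lost when any of 8 libraries was left out (all but replicate 5 of each group). Markers of other cells were mostly near 0. Of neutrophil markers 13 of 13 stayed under 1 TPM in all 10 libraries, of T cell markers 13 of 15, of NK cell markers 9 of 11 and of macrophage markers 9 of 15. The T and NK cell markers that were tested were not silent. Lck, a Src kinase gene marked as overlapping, was at 46.6 to 83.0 TPM in controls and at 67.1 to 107 TPM with Ikaros loss (0.46 ± 0.15, adjusted p = 0.0269), a call lost without control replicate 5 or replicate 1, 3 or 5 with Ikaros loss. Both tested NK markers were lower, Prf1 at 9.27 to 12.4 against 4.30 to 8.41 TPM (-0.74 ± 0.13) and Tbx21 at 4.94 to 9.64 against 1.62 to 4.65 TPM (-1.06 ± 0.20). Monocyte and dendritic cell lists were not, and their values stand beside the myeloid genes below. In a bulk library, a change in the number of cells that express a gene and a change in its RNA per cell cannot be told apart.

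Tmem176a and Tmem176b, which encode a pair of related membrane proteins, showed how tightly raised genes could be set in each group. Tmem176a was at 13.6, 10.7, 13.8, 16.9 and 15.8 TPM in controls and at 246, 267, 223, 230.4 and 243 TPM with Ikaros loss. Tmem176b was at 13.5, 11.0, 12.6, 19.7 and 16.04 TPM in controls and at 216, 236, 198, 224 and 230.3 TPM with Ikaros loss. Both genes were low in all control libraries and more than 10 times higher in all libraries with Ikaros loss, with log2 differences of 4.02 ± 0.10 and 3.86 ± 0.12 (adjusted p = 4.51e-11 and 1.78e-10). The 2 genes lie head to head, and the stretch between their annotated starts is shown because it is the DNA they share. It is 108 bases long in the RefSeq annotation of GRCm38.p6, at chr6:48841375-48841482, and is printed on the strand of Tmem176a. Capitals mark matches to GGGAA, the core of the Ikaros binding sequence, or to its reverse complement TTCCC.
Tmem176b to Tmem176a: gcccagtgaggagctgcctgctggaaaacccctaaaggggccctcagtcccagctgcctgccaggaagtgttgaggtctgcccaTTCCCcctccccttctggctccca

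Ifitm2 was the most raised of the named genes on the log2(TPM + 1) scale, which compresses the change of genes near 0 in controls, such as Eng, Nrp1 and Pdcd1. It encodes a small membrane protein of a family that restricts the entry of viruses and that interferon can induce. Ifitm2 was at 3.08, 2.21, 3.77, 3.25 and 2.14 TPM in controls and at 109, 84.0, 61.4, 72.2 and 91.6 TPM with Ikaros loss, so that the lowest library with Ikaros loss exceeded the highest control by more than 10 times (4.43 ± 0.15, adjusted p = 3.73e-10). The related Ifitm3 was at 232, 118, 100, 101 and 24.2 TPM and at 464, 234, 285, 237 and 226 TPM. Its groups overlapped, because control replicate 1 was as high as some libraries with Ikaros loss, and its difference was 1.58 ± 0.44 (adjusted p = 0.013). The other 5 Ifitm genes listed were under the level needed for a test.

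The call of interferon-stimulated genes changed with the libraries and terms in the fit. With all 10 libraries and no other term 0 of 33 tested passed, with limma on TPM and with voom on the recovered reads alike, and 4 and 3 had an unadjusted p under 0.05. Their summed level ranged from 4620.4 to 10258 TPM in controls and from 6386 to 7848 TPM with Ikaros loss, and the values spread widely within the controls. Irf7, a transcription factor of the interferon response, was at 266, 146, 128, 129.5 and 34.6 TPM in controls, lowest in replicate 5 and highest in replicate 1, and at 91.5, 52.5, 70.5, 47.9 and 44.2 TPM with Ikaros loss. It did not pass (-0.98 ± 0.40, adjusted p = 0.0735). Control replicate 5 was the lowest of all 10 libraries for the summed level and for Irf7. Without it 11 of the 33 genes were called lower and 0 higher, and Irf7 was lower by -1.42 ± 0.24 (adjusted p = 0.000589). That library is singled out here for its low level, and leaving it out raises the control mean, so this count is not a test of the list. With all 10 libraries 24.1% of all genes tested were lower, and the share without control replicate 5 is not given here. With a term for sex and all 10 libraries 3 were lower, Irf7 among them (-0.98 ± 0.32, adjusted p = 0.0286), and 1 higher, and without control replicate 1 there was 1 higher and 0 lower. Control replicate 5 was also lowest for Ifitm3, which remained higher without it, by 1.10 ± 0.25 (adjusted p = 0.00506).

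Several of the other raised genes encode surface molecules that naive follicular B cells express weakly. Eng encodes endoglin, a co-receptor for TGF-beta, and was at 0.825, 0.777, 0.381, 0.523 and 0.347 TPM in controls and 26.5, 30.9, 22.6, 25.9 and 26.6 TPM with Ikaros loss (4.14 ± 0.11). Nrp1 encodes neuropilin, a co-receptor for semaphorins and growth factors, and was at 0.280, 0.172, 0.276, 0.201 and 0.0873 TPM and at 9.82, 6.59, 14.7, 15.2 and 10.4 TPM (3.31 ± 0.17). Both were under 1 TPM in all controls and reached several TPM or more in all libraries with Ikaros loss. Both are also marked in the files as overlapping another gene model, so that some of their reads may belong to a neighbour. Slamf9, a receptor of the SLAM family, was at 17.0, 13.97, 15.7, 19.8 and 15.5 TPM and at 247, 185, 224, 178 and 219.6 TPM (3.60 ± 0.10). Sirpa, an inhibitory receptor for CD47 that is best known from myeloid cells, was at 4.33, 3.74, 4.40, 4.30 and 4.11 TPM and at 44.2, 32.0, 26.6, 33.1 and 38.2 TPM (2.77 ± 0.11). In both genes the 5 control values lay close together and far below the 5 values with Ikaros loss.

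The raised genes inside the cell were of mixed roles. Ctnnd1, which encodes the p120 catenin that stabilises cadherins, was at 0.481 to 0.709 TPM in controls and at 14.1 to 21.3 TPM with Ikaros loss (3.57 ± 0.10). Aif1, a calcium-binding protein known from macrophages, was at 0.709 to 2.90 TPM and at 27.9 to 47.2 TPM (3.71 ± 0.21). Pcp4, which regulates calmodulin, was at 1.45 to 3.18 TPM and at 16.6 to 32.7 TPM (2.79 ± 0.18). Dkkl1, which encodes a secreted protein related to Wnt inhibitors of the Dickkopf family, rose to a high level, from 5.22 to 9.22 TPM to 86.2 to 129 TPM (3.56 ± 0.14). Tifab rose from 0.236 to 0.701 TPM to 7.94 to 12.4 TPM (2.87 ± 0.12). In all of these genes the groups did not overlap.

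**Figure D2:**
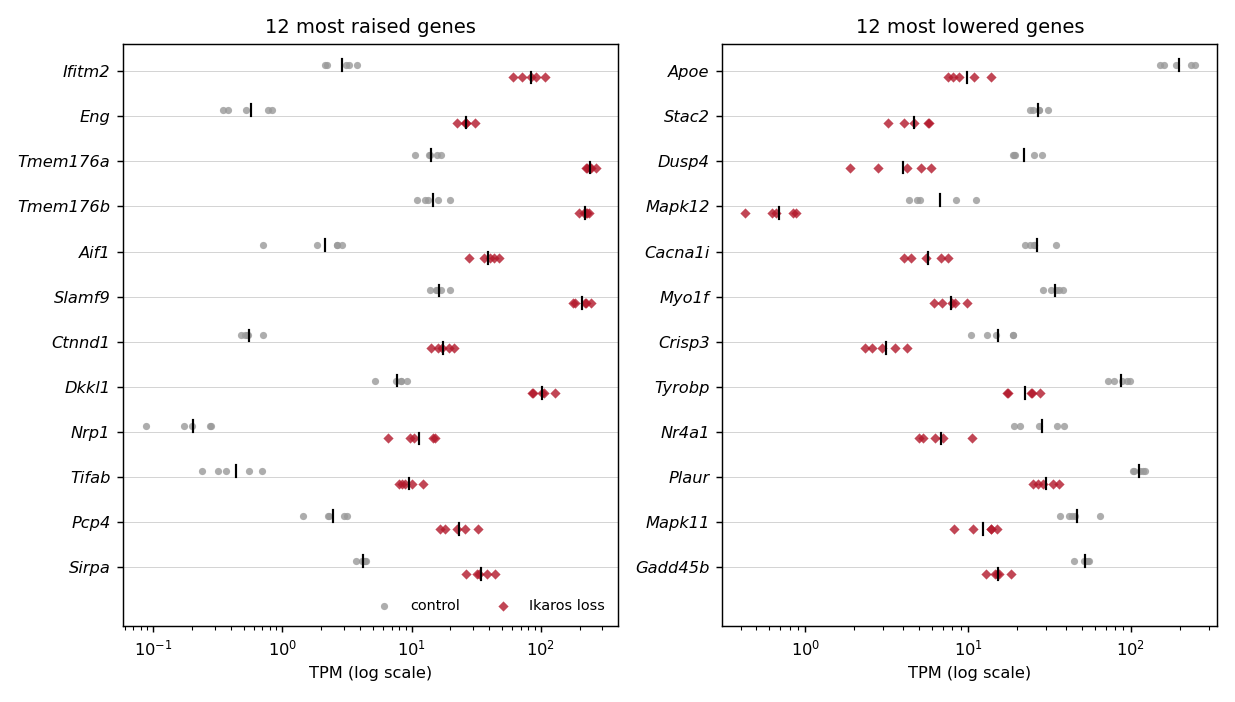
Each symbol is the TPM of 1 library (x axis, log scale) for the 12 most raised genes (left) and the 12 most lowered genes (right). Grey circles are the 5 control libraries, red diamonds the 5 with Ikaros loss and black ticks the group means. The 2 groups are apart in every gene, which the rule that chose them required.

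Apoe was the most lowered of the named genes on the log2(TPM + 1) scale. It encodes apolipoprotein E, which carries lipids between cells. Apoe was at 234, 247, 189, 161 and 150.2 TPM in controls and at 7.48, 8.75, 13.9, 10.9 and 8.05 TPM with Ikaros loss, so that the lowest control exceeded the highest library with Ikaros loss by more than 10 times (-4.19 ± 0.17, adjusted p = 1.33e-09). The next most lowered gene, Stac2, differed by -2.31 ± 0.12. The 250 bases before the first annotated starts of Ifitm2 and Apoe are shown because these are the ends of the range. They are from RefSeq on GRCm38.p6, at chr7:140955962-140956211 for Ifitm2 and at chr7:19699189-19699438 for Apoe, both printed 5′ to 3′ on the minus strand of the chromosome, which is the strand of each gene, with GGGAA and TTCCC in capitals.
Ifitm2: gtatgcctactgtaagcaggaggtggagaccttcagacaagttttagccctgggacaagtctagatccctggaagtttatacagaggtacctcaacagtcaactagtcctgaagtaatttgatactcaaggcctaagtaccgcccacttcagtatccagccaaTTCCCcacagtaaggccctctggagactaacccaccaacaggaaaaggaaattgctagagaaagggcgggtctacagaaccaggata
Apoe: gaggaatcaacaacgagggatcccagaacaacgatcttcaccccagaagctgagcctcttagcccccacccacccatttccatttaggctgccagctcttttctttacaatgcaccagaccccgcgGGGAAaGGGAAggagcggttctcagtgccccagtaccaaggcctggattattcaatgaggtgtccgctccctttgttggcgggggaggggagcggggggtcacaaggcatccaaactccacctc

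The motif is common and says little by itself. The 250 bases before the start held GGGAA on either strand in 56.2% of 32851 RefSeq promoters, 58.1% of those of tested genes, 60.4% of those of genes raised at least 2-fold and 56.1% of those of genes lowered at least 2-fold. The longer TGGGAA, which contains the first motif, was present on either strand in 21.6% of all promoters, 20% of those of tested genes, 28.3% of 212 promoters of the raised genes and 14.6% of 82 promoters of the lowered genes. None of the 3 stretches printed here holds TGGGAA. The 250 bases before the start of the lowered gene Hcst, also read but not printed, hold 1 match to it. Of the 229 raised genes 166 and of the 106 lowered genes 69 were found by symbol among these promoters. These shares are descriptions of the annotation and no test was made.

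Of the 12 most lowered genes, 3 encode MAP kinases or their phosphatase. Dusp4, a phosphatase that switches off MAP kinases, was at 19.3, 25.3, 28.5, 19.0 and 18.8 TPM in controls and at 1.87, 2.79, 4.22, 5.11 and 5.93 TPM with Ikaros loss (-2.27 ± 0.21). Mapk12 and Mapk11, which encode the p38 gamma and p38 beta kinases and are neighbours on the chromosome, were at 4.30 to 11.1 against 0.424 to 0.878 TPM (-2.13 ± 0.20) and at 36.7 to 64.5 against 8.21 to 14.9 TPM (-1.83 ± 0.16). The groups did not overlap in any of the 3 genes.

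Calcium channel and adaptor genes were also among the 12. Cacna1i, a T-type calcium channel subunit, was at 25.4, 25.4, 22.4, 23.9 and 34.8 TPM in controls, highest in replicate 5, and at 4.46, 5.48, 6.82, 7.47 and 4.01 TPM with Ikaros loss (-2.06 ± 0.15). Stac2, an adaptor of voltage-gated calcium channels, was at 23.9 to 30.9 TPM and at 3.23 to 5.75 TPM. Tyrobp, which encodes the signalling adaptor DAP12, was at 87.7, 78.9, 71.9, 94.9 and 99.0 TPM and at 17.6, 27.8, 24.5, 24.3 and 17.4 TPM (-1.92 ± 0.13). Its neighbour Hcst, which encodes the related adaptor DAP10, was lower as well (-0.97 ± 0.10). Each of these genes was lower in all 5 libraries with Ikaros loss than in any control.

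The rest of the 12 most lowered genes included feedback genes of antigen signalling. Nr4a1, an orphan nuclear receptor whose transcription reports BCR signal strength, was at 19.3, 20.9, 27.2, 35.3 and 38.9 TPM in controls and at 5.26, 6.24, 4.97, 10.6 and 7.02 TPM with Ikaros loss (-1.90 ± 0.21). Gadd45b, a stress and NF-kB target, was at 44.4 to 55.5 TPM and at 12.9 to 18.2 TPM (-1.70 ± 0.086). Plaur, the receptor of the urokinase plasminogen activator, was at 102 to 122 TPM and at 25.1 to 36.3 TPM (-1.87 ± 0.093), and the unconventional myosin gene Myo1f was at 28.7 to 38.3 TPM and at 6.16 to 9.79 TPM (-1.99 ± 0.11). Crisp3 was at 10.5 to 18.8 TPM and at 2.31 to 4.19 TPM (-1.96 ± 0.16).

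Genes were then read by pathway, on lists of members that were chosen for this tissue and stimulus. The proximal chain of the BCR, from receptor subunits to PI3 kinase, had 2 of 28 tested members called higher and 11 called lower, against 12.9% higher and 24.1% lower over all genes tested. With median-ratio scaling these were 3 and 6, against 17.3% and 16.6% of all genes. The median of the list was -0.11 and that of all genes -0.08. Cd79a, the signalling subunit of the receptor, was at 7207 to 8123 TPM in controls and at 5493 to 6097 TPM with Ikaros loss (-0.37 ± 0.056). The co-receptor gene Cr2 (-0.59 ± 0.11) and the Src kinase gene Blk (-0.25 ± 0.048) were lower too. The exchange factors Vav3 (0.66 ± 0.11) and Vav2 (0.44 ± 0.071) were higher. Cd79b (-0.097 ± 0.057) and the kinase Syk (-0.15 ± 0.062) did not pass. All named differences of this chain were under 1 on the log2 scale, and 7 members were called lower without replicate 3 of either group.

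Inhibitory receptors and adaptors that restrain the BCR changed in both directions. Of 31 tested, 9 were higher, 2 of which were under 1 TPM in all controls, and 7 lower, with the same counts under median-ratio scaling. Dok3, an adaptor that recruits the phosphatase SHIP-1 to dampen calcium signalling, was at 353, 345, 348, 364 and 354 TPM in controls and at 129.9, 126, 139, 148 and 127 TPM with Ikaros loss (-1.39 ± 0.053, adjusted p = 1.02e-09). Its level fell to less than the lowest control divided by 2 in every library. Lax1, a membrane adaptor that limits receptor signalling, was at 117 to 173 TPM and at 65.3 to 75.3 TPM (-1.07 ± 0.092), and the inhibitory receptor gene Pirb was lower (-1.199 ± 0.10). Pdcd1, which encodes PD-1, was listed at 0 in 4 of the 5 controls and at 0.0470 TPM in the other, and was at 5.73, 2.94, 3.21, 2.34 and 3.73 TPM with Ikaros loss (2.14 ± 0.16). The collagen receptor gene Lair1 (1.25 ± 0.12) and the receptor phosphatase gene Ptprj (0.66 ± 0.093) were also higher.

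In the Ras and MAP kinase list 6 members were higher and 14 lower of 40, or 7 and 14 under median-ratio scaling. All genes tested gave 12.9% and 24.1%, or 17.3% and 16.6% with that scaling. Of the higher members Spry2 was under 1 TPM in all controls, and of the lower Mapk12 was under 1 TPM in all libraries with Ikaros loss. Each entered the test only through the group where it was high. Rasgrp2, which loads Ras family proteins with GTP in response to calcium and diacylglycerol, was at 206, 193, 188, 163 and 198 TPM in controls and at 84.8, 91.5, 94.8, 93.1 and 79.5 TPM with Ikaros loss (-1.09 ± 0.071). Lower as well were Rasa3 (-0.76 ± 0.063), which ends Ras signals, and Dgka (-0.72 ± 0.068), which consumes diacylglycerol and is marked as overlapping another gene model. Spry2, a feedback inhibitor of receptor tyrosine kinases, was higher at a low level, from 0.174 to 0.309 TPM to 1.68 to 2.88 TPM (1.45 ± 0.11). Activators and inhibitors of the pathway were thus found among both the raised and the lowered genes.

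The calcium and NFAT list had 6 members higher and 11 lower of 29, or 9 and 8 under median-ratio scaling. All genes tested gave 12.9% and 24.1%, or 17.3% and 16.6% with that scaling. The lowered members included the calcineurin subunit gene Ppp3cc (-0.72 ± 0.093), the calcium release channel gene Itpr3 (-0.48 ± 0.064) and Nfatc2 (-0.80 ± 0.12), the last at 19.0 to 21.5 TPM in controls and 8.89 to 14.7 TPM with Ikaros loss. Of 27 genes of the NF-kB chain 4 were higher and 7 lower, near the 12.9% and 24.1% of all genes tested. With median-ratio scaling 5 were higher and 3 lower. Higher were the scaffold gene Bcl10 (0.39 ± 0.059), the kinase gene Prkcd (0.55 ± 0.093), Nfkb2 (0.46 ± 0.071), which encodes a subunit of the alternative pathway, and the inhibitor gene Nfkbie (0.24 ± 0.058). Without 1 library at a time the count of lower members of the NF-kB chain ran down to 2, without replicate 2 of the group with Ikaros loss, and was 3 without replicate 3 of either group. Lower were Prkcb (-0.38 ± 0.062), the kinase that links the BCR to NF-kB in B cells, and the nuclear inhibitor gene Nfkbid (-0.96 ± 0.16).

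Immediate early genes, which respond quickly to receptor signals, gave 1 higher and 15 lower of 23, with a median of -0.59. Beside Nr4a1 and Gadd45b these included Nab2 (-1.14 ± 0.18), a co-repressor of Egr proteins, the retention marker Cd69 (-1.10 ± 0.15) and Zfp36 (-0.82 ± 0.080), which promotes the decay of cytokine mRNAs. The 1 higher member was Nab1, the relative of Nab2, at 20.4, 19.5, 21.1, 18.2 and 19.9 TPM in controls and at 41.6, 38.6, 41.8, 37.7 and 37.6 TPM with Ikaros loss (0.96 ± 0.059). The 2 co-repressor genes thus moved in opposite directions. Nab2 is marked as overlapping another gene model.

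**Figure D3:**
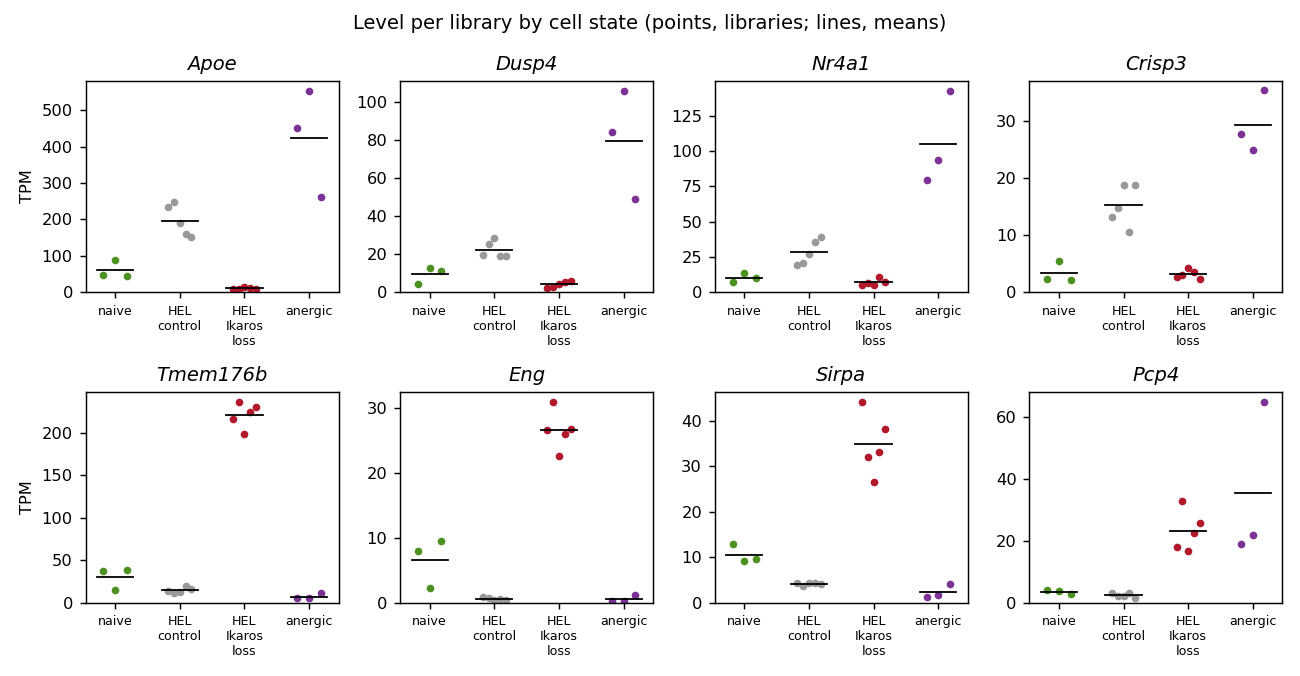
Each point is the TPM of 1 library (y axis, from 0) in naive cells (3 libraries), HEL-exposed control cells (5), HEL-exposed cells with Ikaros loss (5) and anergic cells (3), and lines are means. The 8 genes were chosen after their values were seen. In the upper row the levels with Ikaros loss lie near those of naive cells or below them, and in the lower row they lie above the naive ones.

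For several of these genes the naive and anergic libraries of the same run of library numbers give a scale, although genotypes differ. Of 3 naive libraries 2 were Ikzf1(fl/+) without Cre and the third Cd23-cre Ikzf1(fl/+). The 3 anergic libraries, from mice that also make HEL themselves, all kept Ikaros and in 1 case carried Cre. Nr4a1 was at 6.93, 13.5 and 9.87 TPM in naive cells and at 79.6, 93.5 and 143 TPM in anergic cells, so that the HEL-exposed controls lay between them and the cells with Ikaros loss near or below the naive level. Dusp4 was at 4.16, 12.8 and 11.1 TPM in naive and 84.7, 106 and 48.9 TPM in anergic cells. Apoe was at 46.3, 89.0 and 43.3 TPM and 452, 553 and 262 TPM, and all 5 libraries with Ikaros loss lay below all naive ones. Crisp3 was at 2.34, 5.49 and 2.13 TPM and 27.7, 24.9 and 35.3 TPM, and its level with Ikaros loss lay within the naive range. Tmem176b was at 37.4, 15.4 and 37.8 TPM in naive and 5.403, 5.10 and 11.2 TPM in anergic cells, so that the levels with Ikaros loss lay above every one of them. Pcp4 was at 4.02, 3.67 and 2.69 TPM and 19.0, 21.9 and 64.9 TPM, and its level with Ikaros loss overlapped that of anergic cells. These values are set side by side and no test was made between them.

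On a list of 22 genes linked to anergy 7 were higher and 10 lower, or 7 and 8 under median-ratio scaling. All genes tested gave 12.9% and 24.1%, or 17.3% and 16.6% with that scaling. Pcp4, Pdcd1 and Spry2 were on the raised side, and Nr4a1, Nab2 and Dgka on the lowered side. Of the 7 higher genes 2 were under 1 TPM in all controls.

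Among Toll-like receptors 3 of 13 tested were higher and 1 lower. Tlr2, a receptor for bacterial lipoproteins, was at 8.84, 10.6, 10.2, 10.2 and 12.4 TPM in controls and at 25.1, 22.4, 23.7, 23.3 and 24.2 TPM with Ikaros loss (1.12 ± 0.078). Tlr1, its partner, was lower (-0.43 ± 0.070), so that the 2 partners changed in opposite directions. Tlr9, the receptor for CpG DNA, was at 159, 136, 149, 118 and 95.7 TPM and at 167, 161, 180.2, 201 and 238 TPM (0.53 ± 0.13, adjusted p = 0.00763). Its control values spread from 95.7 to 159 TPM. Without the last-numbered library of each group its difference was 0.34 ± 0.095 (adjusted p = 0.0166). Without control replicate 5 there were 2 lower receptors in place of 1. Tlr4 was higher by 0.24 ± 0.085 (adjusted p = 0.039), a call that was lost when any of 7 of the 10 libraries was left out.

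Of 22 adaptors and regulators of Toll-like receptors 3 were higher and 11 lower, or 3 and 5 under median-ratio scaling. All genes tested gave 12.9% and 24.1%, or 17.3% and 16.6% with that scaling. Ticam2 (0.97 ± 0.10) and Ticam1 (0.52 ± 0.073), the adaptors of the TRIF branch, were higher, the first from 8.83 to 12.1 TPM to 16.6 to 23.5 TPM. Sigirr, an inhibitor of the receptors (-0.42 ± 0.048), and the kinase gene Irak2 (-0.47 ± 0.076) were lower. Irf8, a transcription factor of B and dendritic cells, was higher at a high level, from 562 to 743 TPM to 845 to 940.2 TPM (0.40 ± 0.071). The lower count was 6 without replicate 3 of the group with Ikaros loss and 7 without control replicate 3.

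Genes of antigen presentation were higher more often than lower. Of 22 genes of MHC class II and its loading 10 were higher and 1 lower, or 10 and 0 under median-ratio scaling, with a median of 0.16. The increases of the class II chains were modest. H2-Aa rose by 0.27 ± 0.051, H2-Eb2 by 0.36 ± 0.065, H2-DMb1 by 0.33 ± 0.067 and H2-Oa, which is marked as overlapping another gene model, by 0.36 ± 0.067. H2-Ab1 (0.13 ± 0.062) and the invariant chain gene Cd74 (0.15 ± 0.057) did not pass, nor did they with median-ratio scaling. With voom both were called higher, H2-Ab1 by 0.208 ± 0.075 (adjusted p = 0.0454) and Cd74 by 0.225 ± 0.062 (adjusted p = 0.0116). Of the endosomal enzymes Ctsb, Ctsh and Ifi30 were higher, while Ctss, Ctsd, Ctsl, Ctsz and Lgmn were not called. Ctsb, the protease cathepsin B, was at 104, 96.5, 106, 99.7 and 93.1 TPM in controls and at 273, 239.7, 232, 236 and 253 TPM with Ikaros loss (1.30 ± 0.058). Ifi30, the thiol reductase that opens disulphide bonds of antigens, was at 534, 559.7, 537, 599 and 430.2 TPM and at 833, 808, 849, 899 and 911 TPM (0.70 ± 0.078). In both enzymes the groups did not overlap. Ctsb carries the overlap mark.

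Costimulatory and SLAM family genes were mixed, with 5 higher and 8 lower of 19, against 12.9% and 24.1% of all genes tested. The adhesion receptor gene Cd2 (-0.61 ± 0.069), Icosl, the ligand of ICOS on T cells (-0.62 ± 0.083), and Pdcd1lg2, a ligand of PD-1 (-0.65 ± 0.12), were lower. Slamf7 (0.93 ± 0.15) and Icam1 (0.35 ± 0.061) were higher. Icosl was at 257 to 288 TPM in controls and at 143 to 199 TPM with Ikaros loss.

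Homing and adhesion genes had 6 members higher and 14 lower of 27, or 6 and 9 under median-ratio scaling. All genes tested gave 12.9% and 24.1%, or 17.3% and 16.6% with that scaling. Of the 14 lower, 1 was under 1 TPM in all libraries with Ikaros loss and entered the test only through the controls. The sphingosine phosphate receptor S1pr1, which leads lymphocytes out of tissue, was at 169, 149, 182, 146 and 153 TPM in controls and at 58.1, 79.9, 99.0, 84.8 and 71.8 TPM with Ikaros loss (-1.03 ± 0.12). Klf2, the transcription factor known to drive S1pr1, was at 719.8, 753, 782, 758 and 856 TPM and at 360.3, 381, 421, 559 and 354 TPM (-0.92 ± 0.11). Both fell in every library, and within the group with Ikaros loss replicate 4 was the highest for Klf2. The follicle-homing receptor gene Cxcr5 was at 391 to 443 TPM and at 228 to 293 TPM (-0.65 ± 0.070).

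Integrin beta chains changed in opposite directions. Itgb7, whose protein guides cells to the gut, was at 320.2, 298, 337, 340.2 and 334 TPM in controls and at 130.4, 168, 169.5, 184 and 146 TPM with Ikaros loss (-1.03 ± 0.083). Itgb1 was at 21.7, 19.1, 19.0, 18.6 and 18.6 TPM and at 63.4, 48.0, 39.9, 42.6 and 48.9 TPM (1.26 ± 0.10), and Itgb3 was higher as well (0.75 ± 0.087). The groups of all 3 genes did not overlap. The alpha chain that Itgb1 and Itgb7 share, Itga4, was not called.

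Cytokine receptors and SOCS feedback genes rose more often than they fell, 11 against 4 of 26, or 12 against 3 with median-ratio scaling. Of the 11, 3 were under 1 TPM in all controls and so entered the test only through the group with Ikaros loss. Il9r, the receptor of interleukin 9, was at 51.7, 46.8, 52.8, 42.0 and 50.9 TPM in controls and at 131, 162, 150.1, 138 and 115 TPM with Ikaros loss (1.49 ± 0.091). Csf2rb encodes the shared beta chain of the receptors of GM-CSF, interleukin 3 and interleukin 5, and its neighbour Csf2rb2 a related beta chain. The 2 genes differed by 1.78 ± 0.11 and 1.47 ± 0.11. They are near-identical and marked as overlapping, so their reads can be split between them. Il6st, the signalling chain of the interleukin 6 receptor, rose from 3.74 to 5.39 TPM to 8.26 to 10.5 TPM (0.98 ± 0.092). Flt3, a growth factor receptor of progenitors and dendritic cells, rose from 2.68 to 5.83 TPM to 9.46 to 17.6 TPM (1.33 ± 0.17). Socs2, a feedback inhibitor, was under 1 TPM in all controls and at 1.52 to 1.88 TPM with Ikaros loss (1.08 ± 0.10).

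Survival and death genes were split, 5 higher and 6 lower of 22, against 12.9% and 24.1% of all genes tested. The kinase genes Pim1 (-1.55 ± 0.11) and Pim3 (-0.89 ± 0.10), which promote survival, and the receptor gene for BAFF, Tnfrsf13c (-0.51 ± 0.078), were lower. So was the death gene Bid (-0.79 ± 0.068). The protective Bcl2l2 (0.90 ± 0.087) and the death gene Bmf (0.53 ± 0.071) were higher. Pim1 was at 24.6, 27.3, 28.9, 24.8 and 37.8 TPM in controls and at 8.39, 7.96, 10.2, 9.999 and 8.78 TPM with Ikaros loss, with no overlap.

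Transcription factors of the B lineage were lower more often than higher, 15 against 7 of 31, or 14 against 8 with median-ratio scaling. Id3, an inhibitor of E proteins, was at 288, 330.4, 330.3, 266 and 338 TPM in controls and at 137, 148, 176, 142 and 174 TPM with Ikaros loss (-0.996 ± 0.088). Satb1, a chromatin organiser, was at 42.3 to 52.3 TPM and at 23.1 to 28.6 TPM (-0.91 ± 0.073), and Spi1, which encodes PU.1, was lower (-0.63 ± 0.075). The paralogs Bhlhe40 (-1.08 ± 0.12, marked as overlapping) and Bhlhe41 (1.05 ± 0.15) moved in opposite directions. Pax5, which maintains B cell identity, did not pass (-0.13 ± 0.070).

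Genes of early B cells were higher where they could be tested. Of 19 listed, 7 were tested and all 7 were called higher, while the other 12, among them Rag1, Rag2 and Dntt, were under the level needed. Erg (0.90 ± 0.14), Myb (0.97 ± 0.15) and Bst1 (1.71 ± 0.15) entered the test through the group with Ikaros loss and were under 1 TPM in all controls, so the count of 7 is not a measure of the list. Vpreb3, which assists light chain assembly, was well expressed in both groups, at 210.0 to 245 TPM and 248 to 387 TPM (0.50 ± 0.11).

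Marginal zone and B1 cell genes changed in both directions, 8 higher and 7 lower of 18, against 12.9% and 24.1% of all genes tested. Of the 7 lower, 1 was under 1 TPM in all libraries with Ikaros loss and entered the test only through the controls. Cd36, a scavenger receptor, was at 23.1, 20.2, 26.2, 14.96 and 16.8 TPM in controls and at 80.5, 71.7, 89.4, 65.4 and 78.0 TPM with Ikaros loss (1.90 ± 0.13). Spn, which encodes CD43 (1.16 ± 0.10), and Myof (1.45 ± 0.18) were higher. Notch2, the receptor that directs marginal zone fate, was lower (-0.63 ± 0.075), and so was Dtx1, a Notch target, at 150.4, 127, 145, 133 and 111 TPM and 51.3, 59.8, 44.6, 67.8 and 50.7 TPM (-1.27 ± 0.11). Cd55, a complement regulator, was lower as well (-1.09 ± 0.11).

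Plasma cell genes were mixed, 4 higher and 6 lower of 17, or 5 and 3 under median-ratio scaling. All genes tested gave 12.9% and 24.1%, or 17.3% and 16.6% with that scaling. Xbp1, the factor that expands the secretory apparatus, was at 82.7, 84.7, 71.9, 66.7 and 71.9 TPM in controls and at 147, 116, 129, 125 and 132 TPM with Ikaros loss (0.77 ± 0.078). The secretory genes Fkbp11 (-1.18 ± 0.20) and Derl3 (-1.08 ± 0.17) and the chaperone gene Hspa5 (-0.35 ± 0.083) were lower. Among plasma cell genes the lower count was 3 without replicate 2 or 3 of the group with Ikaros loss or control replicate 3, and the higher count was 2 without replicate 1 or 4 with Ikaros loss or control replicate 4. Of 8 germinal centre genes 2 were higher and 1 lower. The lower count was 2 without any 1 library with Ikaros loss or without control replicate 4, 3 without control replicate 5 and 6 with no filter on low values. S1pr2 (0.77 ± 0.13) and the semaphorin receptor gene Plxnb2 (1.77 ± 0.087, marked as overlapping) were higher, and Bcl6, the repressor that defines germinal centre cells, was lower, from 61.1 to 89.9 TPM to 42.1 to 58.6 TPM (-0.59 ± 0.12).

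The TGF-beta list had 3 members higher and 8 lower of 19, or 3 and 7 under median-ratio scaling. All genes tested gave 12.9% and 24.1%, or 17.3% and 16.6% with that scaling. Of the higher members Eng was under 1 TPM in all controls, and of the lower Tgfb3 was under 1 TPM in all libraries with Ikaros loss. Each entered the test only through the group where it was high. Beside the co-receptor Eng, the signal transducer gene Smad3 was higher (0.44 ± 0.077). The ligand gene Tgfb3 was lower, at 3.51, 2.92, 4.88, 3.47 and 1.98 TPM in controls and at 0.632, 0.568, 0.495, 0.506 and 0.523 TPM with Ikaros loss (-1.46 ± 0.15), and so were the inhibitors Smad7 (-0.46 ± 0.10), Ski (-0.38 ± 0.074) and Tgif1 (-0.71 ± 0.13). The Wnt and catenin list had 6 members higher and 3 lower of 19, or 6 and 1 under median-ratio scaling. The same shares over all genes tested apply to it. With Ctnnd1 and Dkkl1, the Wnt secretion gene Wls was higher, from 1.66 to 4.12 TPM to 15.7 to 21.3 TPM (2.40 ± 0.16), as were Ctnna1 (0.83 ± 0.088) and the receptor gene Lrp5 (0.80 ± 0.12). Of the 6 higher members of this list 2 were under 1 TPM in all controls, and its lower count was 5 without replicate 4 with Ikaros loss. Axin1, a scaffold that degrades beta-catenin, was lower (-0.31 ± 0.052).

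Genes best known from myeloid cells were often raised. Of 42 listed, 22 were tested, and 13 of these were higher and 3 lower, or 15 and 3 under median-ratio scaling, with a median of 0.76. Beside Sirpa and Aif1, the kinase gene Fes was at 21.8, 19.0, 22.4, 23.2 and 19.98 TPM in controls and at 77.7, 71.3, 67.6, 63.5 and 68.0 TPM with Ikaros loss (1.67 ± 0.070). The chemokine receptor gene Ccr1 rose from 3.74 to 4.52 TPM to 15.00 to 28.6 TPM (2.11 ± 0.15). Ccr2 (2.07 ± 0.17) was near 0 in all controls, so it entered the test through the other group, and 2 of the 13 higher genes were under 1 TPM in all controls. The Src kinase gene Fgr was not called on the TPM scale (0.31 ± 0.12, adjusted p = 0.058). With median-ratio scaling it was called higher (0.38, adjusted p = 0.0237).

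The marker lists of these cells moved with this group. The summed level of 11 monocyte markers was 27.3 to 177 TPM in controls and 267 to 377 TPM with Ikaros loss, and 6 of the 7 tested were higher, 2 of which were under 1 TPM in all controls and entered the test only through the other group. Most of that sum was Ly6c2 (122, 83.8, 82.0, 68.3 and 14.2 TPM in controls and 255, 169.7, 233, 193 and 156 TPM with Ikaros loss), while Cd14, Fn1, F13a1 and Lyz1 stayed under 1 TPM in all 10 libraries and Lyz2, the abundant lysozyme of myeloid cells, at 1.49 to 5.50 TPM with Ikaros loss. Without control replicate 5 Ly6c2 was higher by 1.18 ± 0.17 (adjusted p = 0.000174). Conventional dendritic cell markers summed to 591 to 739 TPM in controls and 702 to 833 TPM with Ikaros loss, with 4 of 5 tested higher, 1 of them under 1 TPM in all controls, and Xcr1, Clec9a, Itgax and Batf3 under 1 TPM. Most of this sum was Cst3, with means of 647 TPM in controls and 745 TPM with Ikaros loss. Plasmacytoid dendritic cell markers summed to 382 to 736 TPM and 788 to 1026 TPM. Of 6 tested, 4 were higher, 2 of which were under 1 TPM in all controls. Pacsin1 was lower (-0.46 ± 0.15, adjusted p = 0.0306), a call lost with median-ratio scaling, and Bst2 did not pass. In that sum Pld4 had means of 281 and 577 TPM, and Bst2 of 234 and 218 TPM. Siglech was at 0 to 0.0386 TPM and 1.49 to 2.90 TPM. The 5 tested macrophage markers gave 1 higher and 1 lower, and the higher count was 0 or 2 without most single libraries. The part of other cells in the result was not tested beyond these values.

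Of 8 lipid and leukotriene genes tested, Apoe among them, 2 were higher and 4 lower. Only 1 was higher when any of 6 libraries was left out (all but replicates 2, 3 and 4 with Ikaros loss and control replicate 3). Alox5ap, the protein that hands arachidonic acid to 5-lipoxygenase, was at 38.9, 34.0, 47.3, 44.6 and 27.2 TPM in controls and at 239, 246, 225, 197 and 208 TPM with Ikaros loss (2.53 ± 0.13). The cholesterol exporter gene Abca1 (-0.70 ± 0.10), Mylip (-0.44 ± 0.090) and Nr1h2 (-0.39 ± 0.056), which encodes the nuclear receptor LXR beta that controls such genes, were lower. Of 22 cholesterol synthesis genes 5 were higher and 2 lower, against 12.9% and 24.1% of all genes tested. Among them Pmvk (0.53 ± 0.071) and Mvd (0.55 ± 0.10) were higher and Dhcr7 (-0.41 ± 0.056) lower.

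Of 7 tested genes of the Tmem176 and Ms4a families 5 were higher and 1 lower, against 12.9% and 24.1% of all genes tested. The 5 included Tmem176a and Tmem176b, already named among the most raised, so the count is in part built in. Another was the B cell marker gene Ms4a1 (0.16 ± 0.057, adjusted p = 0.0389). Its groups overlapped, and its call was lost when single libraries were left out. Ms4a6c was at 8.62, 8.97, 8.14, 7.04 and 7.45 TPM in controls and at 49.7, 39.7, 48.0, 44.9 and 44.9 TPM with Ikaros loss (2.36 ± 0.078), and its neighbour Ms4a6b was higher (0.91 ± 0.12). Ms4a4b was lower at a low level (-0.45 ± 0.12).

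Most genes of ribosome biogenesis and of serine metabolism were lower. Of 33 genes of ribosome biogenesis 1 was higher and 26 lower, the same with median-ratio scaling, with a median of -0.43. Srm, the spermidine synthase, was at 46.5, 41.1, 53.7, 51.9 and 49.1 TPM in controls and at 20.9, 18.7, 17.7, 19.6 and 29.7 TPM with Ikaros loss (-1.16 ± 0.12). Of 16 genes of amino acid transport and serine metabolism 2 were higher and 10 lower, on both scalings. Phgdh, the entry enzyme of serine synthesis, was at 45.3, 44.5, 43.9, 42.1 and 46.1 TPM and at 24.3, 27.1, 24.6, 27.4 and 27.4 TPM (-0.74 ± 0.056). Shmt2 (-0.70 ± 0.090, marked as overlapping), Mthfd1l (-0.85 ± 0.10) and the amino acid transporter gene Slc7a5 (-0.89 ± 0.14) were lower too. Mthfd2, a mitochondrial folate enzyme of the same branch, was higher, from 13.9 to 17.8 TPM to 21.9 to 34.2 TPM (0.76 ± 0.11).

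Genes of glucose use were near the background, 3 higher and 6 lower of 23, or 5 and 4 under median-ratio scaling. The glucose transporter genes Slc2a1 (-0.59 ± 0.080) and Slc2a3 (-0.51 ± 0.094) were lower and the muscle-type enzyme genes Eno3 (1.23 ± 0.19) and Pfkm (0.80 ± 0.12) higher. Structural housekeeping lists changed little. Of 78 ribosomal proteins 11 were higher and 3 lower, with a median of 0.0034, of 75 genes of oxidative phosphorylation 6 and 8, or 13 and 1 under median-ratio scaling, and of 37 proteasome genes 2 and 4, or 3 and 0. The direction of the last 2 lists thus depended on the scaling. The 11 higher ribosomal proteins became 5 to 7 without replicate 1, 3 or 5 of the group with Ikaros loss or without control replicate 1 or 4, and the 3 lower ones 5 without replicate 4 with Ikaros loss. Genes of oxidative phosphorylation had 3 higher without replicate 1 or 2 with Ikaros loss or control replicate 4. They had 4 lower without control replicate 2 and 5 without replicate 2 or 3 with Ikaros loss or control replicate 4. Of proteasome genes, leaving out 1 library gave 1 to 4 higher, the most without replicate 4 with Ikaros loss, and the lower count was 1 or 2 without any 1 of 7 libraries (replicate 2, 4 or 5 with Ikaros loss, control replicate 1, 2, 4 or 5). Of 28 cell cycle genes 3 were higher and 7 lower, near the shares over all genes tested. With median-ratio scaling 5 were higher and 6 lower, and without replicate 4 with Ikaros loss 5 were higher. Ccnd1 (1.06 ± 0.10) and Tyms (0.94 ± 0.13) were higher and Ccne1 (-0.58 ± 0.11) and E2f2 (-0.42 ± 0.084) lower.

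**Figure D4:**
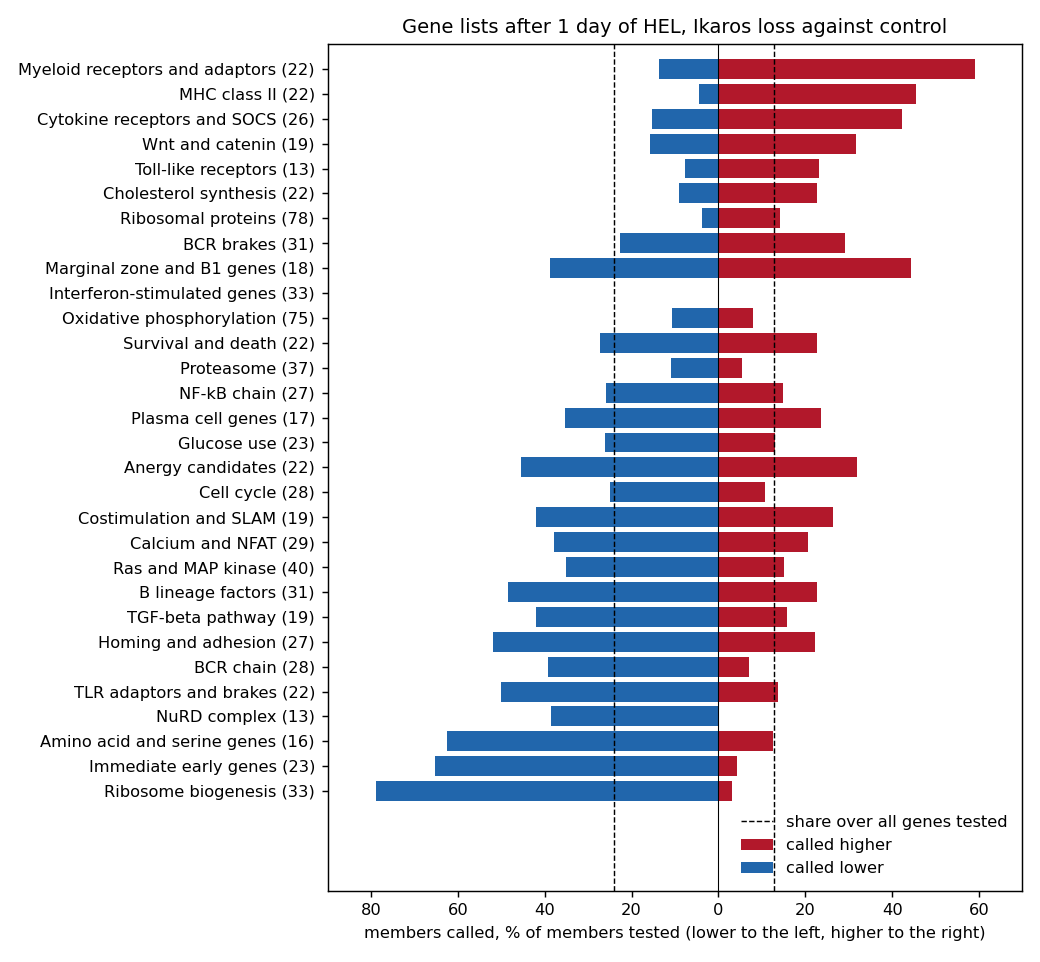
Bars give the percentage of tested members of each list that were called higher (red, to the right) or lower (blue, to the left) with Ikaros loss, for the 30 lists with at least 13 tested members (number in brackets). Dashed lines mark the share over all 10258 genes, 12.9% higher and 24.1% lower. Ribosome biogenesis, with 26 of 33 lower, lies at one end and the myeloid receptors and adaptors, with 13 of 22 higher, at the other. The empty bar of the interferon-stimulated genes is for all 10 libraries, as are the dashed lines. Without control replicate 5, the library lowest for these genes, 11 of 33 were lower, a count to which the dashed lines do not apply.

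The NuRD complex, the remodelling partner of Ikaros, had 0 of 13 members higher and 5 lower, or 1 and 3 under median-ratio scaling. Mta3, the NuRD subunit prominent in B cells, was at 76.2, 70.7, 74.7, 81.7 and 75.6 TPM in controls and at 58.7, 63.5, 56.1, 63.7 and 58.8 TPM with Ikaros loss (-0.33 ± 0.056). Mbd2 (-0.27 ± 0.057) was lower by a similar amount, and so was Rbbp7 (-0.32 ± 0.074, marked as overlapping). The calls of Chd3 (-0.22 ± 0.074) and Mta2 (-0.16 ± 0.054) were lost with median-ratio scaling and when any of 7 or 5 libraries, respectively, was left out. The lower count of the complex was 3 without replicate 2 or 3 with Ikaros loss or control replicate 3 or 5. Chd4, the main ATPase, which is marked as overlapping, did not pass on the TPM scale (0.16 ± 0.079). It was the 1 member called higher with median-ratio scaling (0.23 ± 0.065, adjusted p = 0.0156). It was also called higher with voom (0.24 ± 0.067, adjusted p = 0.0134) and without replicate 3 with Ikaros loss (0.215 ± 0.072, adjusted p = 0.0394).

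Whether the same genes respond to Ikaros loss under another stimulus was asked with 8 libraries of cells stimulated for 1 day in culture with CpG, a ligand of Tlr9. These compare Cd23-cre Ikzf1(fl/-) with Cd23-cre Ikzf1(fl/+) cells, 4 libraries each, so that stimulus, culture and the genotype of the controls all differ from the HEL comparison and cannot be told apart. In a test of the difference between the effects, CpG minus HEL, 2479 of 11050 genes passed (22.4%). The difference was above 0 in 1685 (15.2%) and below 0 in 794 (7.19%), and in 1344 and 1065 with median-ratio scaling. Of the 229 genes raised at least 2-fold with HEL, the effect was smaller or reversed with CpG in 145 and larger in 9. Of the 106 lowered at least 2-fold, it was smaller or reversed in 63 and larger in 0. Within CpG, 192 of the raised genes were tested, and 105 were also called higher and 3 lower. Of the lowered genes 77 were tested, and 27 were also called lower and 7 higher. Since the genes were taken for large effects with HEL, a smaller effect elsewhere is in part built into these counts.

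Among the 24 most changed genes, 23 had a called difference, and 15 of these were also called with voom on the recovered reads. The other 8 were not called by voom, which were Tmem176a, Nrp1, Pcp4, Mapk12, Cacna1i, Myo1f, Crisp3 and Mapk11. The exception was Tyrobp (0.59 ± 0.26, adjusted p = 0.108), at 21.8 to 47.8 TPM in fl/+ and 10.04 to 11.9 TPM in fl/- cells with CpG. Tmem176b (1.28 ± 0.21) and Tmem176a (0.63 ± 0.19) were the 2 raised genes whose effect was larger with CpG. The difference of Tmem176a was not called with median-ratio scaling either (0.55, adjusted p = 0.0552), nor without fl/- replicate 1 or 2 or fl/+ replicate 3 or 4 of the CpG libraries. That of Myo1f was 0.39 with a pseudocount of 0.1 (adjusted p = 0.289). Tyrobp was called without fl/+ replicate 1 (0.82, adjusted p = 0.00502). Tmem176b was at 5.68 to 10.6 TPM in fl/+ and 269 to 301 TPM in fl/- cells. The effect of Ikaros loss on Slamf9 with CpG was -0.073 and did not pass (adjusted p = 0.922), at 1.21 to 8.56 TPM in fl/+ and 3.51 to 5.46 TPM in fl/- cells, and the difference from HEL was -3.68 ± 0.40 (adjusted p = 6.49e-06).

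For lowered genes a low level with CpG limits what can be compared. Apoe was at 0.627 to 3.93 TPM in fl/+ and 0.104 to 0.917 TPM in fl/- cells, and Crisp3 and Cacna1i stayed under 2 TPM in all 8 libraries, as did Mapk12. The raised gene Pcp4 was at 0 in all 4 fl/+ libraries and at 0 to 0.369 TPM in fl/- cells. These 5 genes were too low for a test within CpG, so that their difference rests largely on the effect with HEL. Gadd45b, in contrast, was high with CpG, at 303 to 477 TPM in fl/+ and 398 to 531 TPM in fl/- cells, and its difference was 2.09 ± 0.17 (adjusted p = 4e-07). Nr4a1 was at 9.41 to 11.2 TPM in fl/+ and at 15.6 to 20.2 TPM in fl/- cells, so that it was higher with Ikaros loss after CpG and lower after HEL (2.63 ± 0.28, adjusted p = 4.63e-06).

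**Figure D5:**
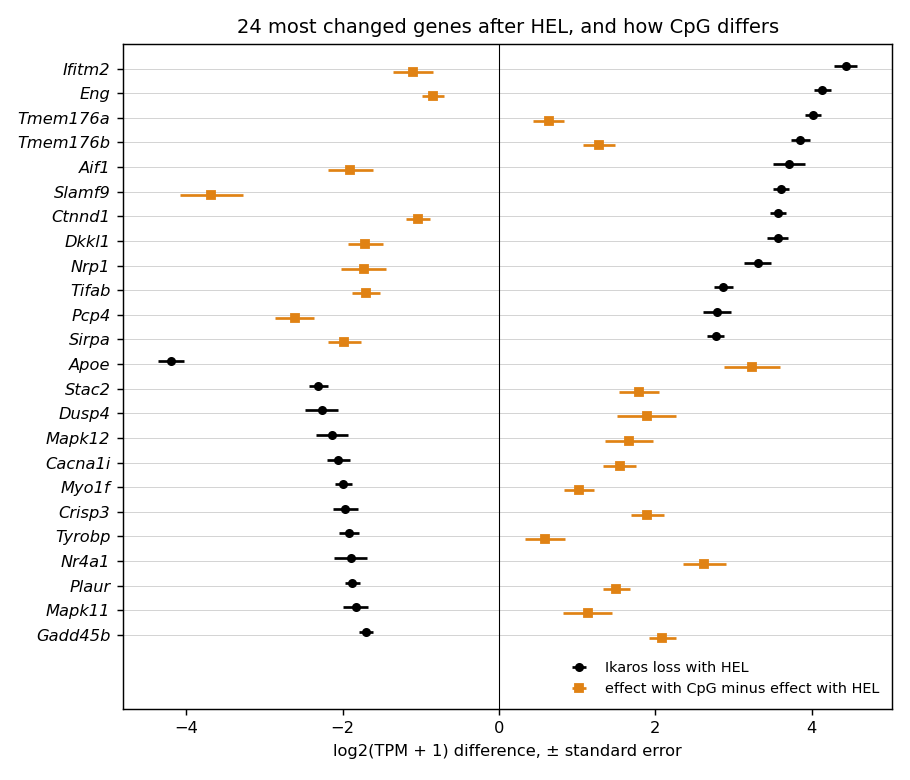
Black circles give the log2(TPM + 1) difference of Ikaros loss with HEL and orange squares how much the effect with CpG differs from it (CpG minus HEL), both with standard errors, for the 24 most changed genes. In 21 genes the square lies on the other side of 0 from a called HEL effect and was called, in Tmem176a and Tmem176b it lies on the same side, and in Tyrobp it was not called.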

How the data were processed

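RNA was purified by its poly(A) tail. The submitters' processing notes name featureCounts 1.5.0, the aligner TopHat 1.4.1 with Bowtie, deepTools 3.0.1, SAMtools 1.4 and, as genome build, mm9. The authors deposited TPM, a level per gene length scaled to a constant total, for 24732 genes per library. Genes that overlap another model are marked in the files, and without a stated strand their reads cannot be told apart from those of the partner. The chromatin samples of the series were not analysed here.

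From the deposited TPM, log2(TPM + 1) went into a two-sided moderated test with a mean-variance trend (limma 3.58.1, R 4.3.3), with Benjamini-Hochberg adjustment over all genes tested and a call at an adjusted p under 0.05. Genes needed 1 TPM in at least 5 of the 10 HEL libraries, or in at least 4 of 18 for the difference CpG minus HEL. A log2 difference is on the log2(TPM + 1) scale, which understates the change of low genes. Every adjusted p is from limma. The fit was tested on simulated data with a fixed spread between libraries. With HEL it recovered 74.6% of 1.5-fold and 95.5% of 2-fold changes. For the difference CpG minus HEL it recovered 10.4% and 67.2%, so smaller differences can be missed. Whole reads were recovered from the steps of the TPM values for 18843 of 18843 genes, within 0.01 of a whole number, and voom on them was an alternative. The step of a gene was found as the common divisor of its own values, so whole numbers are in part built in. A factor shared by all values of a gene is divided out, so reads of genes above 0 in few libraries can be too low. Replicates are numbered in the order of their records, and a number pairs no samples. The text names Ikzf1 and Ikzf3, then the 12 called genes that rose most and the 12 that fell most with a mean of at least 5 TPM in the higher group and libraries that do not overlap, and for each of 46 lists up to 6 called members by adjusted p and up to 2 uncalled ones by level. A few more were added after their values were seen. The comparison, the lists and the tests were chosen with earlier results of these data known. Promoter sequences are from RefSeq on GRCm38.p6, a later build than that of the reads. Python 3.11.15, pandas 2.3.3 and numpy 2.4.6 were used for the rest.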

Additional observations from a re-analysis of the deposited data

Results flagged for a closer look

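Single libraries stood apart from the other 4 of their group in 17 of 370 groups of TPM values checked, by a gap to the nearest library that was large against the range of the group. Chance gives about 1 in 20. Control replicate 3 was highest for Ikzf1 (260.8 TPM against 195 to 214 in the others), Ticam2 (12.13 against 8.829 to 9.745), Ccnd1 (1.196 against 0.8439 to 0.9181), Ccr2 (0.1771 against 0 to 0.05131) and Pdcd1 (0.04704 against 0). Control replicate 5 was highest for Cacna1i (34.79 against 22.44 to 25.45) and Bmf (57.05 against 44.61 to 47.52) and lowest for Nfkbie (128.1 against 135.8 to 138.9). Control replicate 2 was highest for Ctnnd1 (0.7093 against 0.4813 to 0.5381) and control replicate 1 for Itgb1 (21.67 against 18.55 to 19.14).

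Among libraries with Ikaros loss, replicate 1 was highest for Ifitm3 (464.2 TPM against 225.5 to 285) and Ccne1 (7.519 against 4.784 to 5.461). Replicate 5 was highest for Slamf7 (40.63 against 29.31 to 32.18) and Srm (29.67 against 17.73 to 20.87). Replicate 3 was highest for Lyz2 (5.498 against 1.49 to 2.024), and replicate 4 for Tgif1 (28.94 against 16.02 to 18.6) and Cxcr4. Cxcr4, the receptor of the chemokine CXCL12, reached 176.9 TPM in replicate 4 against 52.9 to 67.39 TPM in the other 4, inside the control range of 148.2 to 233.66 TPM. With all libraries Cxcr4 was lower by -1.33 ± 0.27 (adjusted p = 0.00165), and without replicate 4 by -1.64 ± 0.12 (adjusted p = 1.27e-06).

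For 23 of the 24 most changed genes, which were chosen for large effects with HEL, the difference between the effects of Ikaros loss with CpG and with HEL was called. Pcp4, Apoe, Mapk12, Cacna1i and Crisp3 were too low for a test within CpG, so for these 5 the difference rests largely on the effect with HEL. The difference, CpG minus HEL on the log2(TPM + 1) scale, was below 0 for raised genes other than Tmem176a and Tmem176b. It was -3.677 for Slamf9, -2.613 for Pcp4, -1.977 for Sirpa, -1.90 for Aif1, -1.729 for Nrp1, -1.707 for Dkkl1, -1.699 for Tifab, -1.098 for Ifitm2, -1.034 for Ctnnd1 and -0.8411 for Eng. It was 1.279 for Tmem176b and 0.6339 for Tmem176a, the only raised genes whose effect was larger with CpG. For lowered genes it was 3.241 for Apoe, 2.627 for Nr4a1, 2.087 for Gadd45b, 1.899 for Crisp3, 1.888 for Dusp4, 1.791 for Stac2, 1.663 for Mapk12, 1.545 for Cacna1i, 1.499 for Plaur, 1.134 for Mapk11 and 1.023 for Myo1f. The adjusted p ran from 4e-07 for Gadd45b to 0.0261 for Tmem176a. Voom on the recovered reads did not call 8 of the 23.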

How the results depend on the processing

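The 3790 genes called with HEL became 3262 to 4001 over the alternatives, and the 2479 called for the difference CpG minus HEL became 2036 to 2795. Leaving out 1 library at a time gave 3262 to 3764 and 2036 to 2795. With HEL, a pseudocount of 0.1 gave 3781, no filter on low values 4001, median-ratio scaling 3475, voom 3496, a sex term 3794, the 8 libraries without the last-numbered of each group 3433, and a fit with all libraries whose number begins with 57 3381. Of the named genes, 185 were followed through the alternatives. Of these 175 were called, and 170 kept direction and call in every alternative run. None changed sign, and Chd3, Mta2, Tlr4, Lck and H2-Aa lost the call in at least 1. Chd3 (adjusted p = 0.0989) and Mta2 (0.166) lost it with median-ratio scaling and with voom, and Tlr4 (0.0708), Lck (0.0688) and H2-Aa (0.109) with no filter. Ms4a1 and Pacsin1 are named in the text but were not among the 185, and both also lost the call. Ms4a1 lost it when single libraries were left out and Pacsin1 with median-ratio scaling (adjusted p = 0.0534). The cause was not tested. Most named genes were chosen for a large effect or a small adjusted p, so keeping the call was in part built into the choice. Over all genes, median-ratio scaling kept 1320 of the 1321 calls higher and 1704 of the 2469 calls lower. Of 1564 recomputed counts of list members 161 moved by more than 1.5 times. Voom gave a difference over 1.5 times larger for 21 named genes, such as Pdcd1, Ccr2 and Nrp1, since log2(TPM + 1) compresses values near 0. No paired analysis was possible because the labels give no replicate numbers that tie libraries of the 2 groups. The depth of 16085832 to 25424364 reads leaves genes under 1 TPM poorly measured.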

Other observations

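Antigen receptor transcripts, which were left out of the named genes and are given here after their values were seen, were among the most abundant that changed. IGHM, the constant region of IgM, was at 8530, 8206, 8653, 7872 and 8711 TPM in controls and at 12595, 11374, 12074, 12939 and 14104 TPM with Ikaros loss (0.59 ± 0.065, adjusted p = 1.62e-05). IGHD, the constant region of IgD, was at 2630.3, 2489, 2708, 2162 and 2568 TPM in controls and at 1203, 1185, 1417, 1318 and 1658 TPM with Ikaros loss (-0.90 ± 0.092, adjusted p = 8.31e-06). The 2 isotypes of naive cells thus moved in opposite directions, with no overlap of the groups in either.

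The light chain constant gene Iglc1 of the lambda locus was at 436, 476, 453, 369 and 468 TPM in controls and at 1837, 1488, 1952, 1632 and 1659 TPM with Ikaros loss (1.96 ± 0.084, adjusted p = 2.83e-09). IGHG2b, a constant region of IgG, was at 53.7, 54.1, 40.7, 28.4 and 12.5 TPM in controls and at 283, 275, 209, 218 and 176 TPM with Ikaros loss (2.73 ± 0.32, adjusted p = 2.37e-05). Paralogs of these constant genes share reads, and gene totals do not separate the MD4 transgene from endogenous transcripts.

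Other abundant genes also changed, and these too were chosen after their values were seen. Grn, the lysosomal growth factor progranulin, was at 164, 112, 145, 126 and 79.4 TPM in controls and at 514, 387, 354, 365 and 411 TPM with Ikaros loss (1.72 ± 0.16). Psap, the precursor of the lysosomal saposins, was higher by 0.59 ± 0.096. Plac8, which is also counted among the marginal zone and B1 genes, was at 1064 to 1919 TPM in controls and at 2821 to 3810 TPM with Ikaros loss (1.10 ± 0.14), whereas Crip1 was lower, from 1227 to 1887 TPM to 657 to 905 TPM (-1.04 ± 0.12). Fcgrt, the neonatal Fc receptor that protects IgG from degradation, was at 61.3 to 68.0 TPM and at 17.9 to 23.6 TPM (-1.55 ± 0.085). The groups did not overlap in these 5 genes.

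Some changed genes lie side by side. Of the 335 genes that differed at least 2-fold, 293 were found in the RefSeq table of GRCm38.p6. They formed 17 pairs of direct neighbours, of which 13 moved in the same direction, 10 higher and 3 lower, and 4 in opposite directions. Beside the Tmem176 pair, Slamf9 lies next to Igsf9 (2.38 ± 0.10) and Fads2 (1.28 ± 0.18) next to Fads1 (1.67 ± 0.21, marked as overlapping). Gimap3, next to Tmem176b, moved the other way, from 223 to 281 TPM in controls to 81.8 to 125 TPM with Ikaros loss (-1.22 ± 0.10). The lowered Mapk12 and Mapk11 lie next to the raised Plxnb2.

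The neighbours of the deleted gene itself were higher. Fignl1, next to Ikzf1, was at 1.46, 0.839, 1.59, 0.857 and 0.869 TPM in controls and at 2.37, 3.15, 3.78, 4.28 and 6.33 TPM with Ikaros loss (1.198 ± 0.18, adjusted p = 0.000245). Ddc, the next gene, was at 0 in 3 controls and under 0.1 TPM in the other 2, and at 2.22, 1.64, 2.59, 1.54 and 4.19 TPM with Ikaros loss (1.71 ± 0.17, adjusted p = 6.19e-06). Whether the engineered allele changes transcripts of its neighbours was not tested. Both control and Ikaros loss mice carried the floxed allele, and the groups differ by Cre.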
